A study of Mus musculus with 60 samples.

Results

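Nascent RNA was compared directly between mouse embryonic stem cells (mESCs) in which one or the other of 2 truncated forms of CTCF had been removed. The comparison holds 4 of the 60 libraries of the series, 2 after 2 h of AGB1 and 2 after 2 h of dTAG13, all from E14 ES cells of the genotype bTAG-delN-CTCF/dTAG-CTCF-delC. One *Ctcf* allele of this line encodes ΔN-CTCF, which lacks the region before the zinc fingers and carries BromoTag (bTAG), the tag that AGB1 sends to a VHL ubiquitin ligase. The other encodes CTCF-ΔC, which ends after the last zinc finger and carries dTAG with GFP, the tag that dTAG13 sends to a cereblon ubiquitin ligase. AGB1 cells therefore retained CTCF-ΔC, and dTAG13 cells retained ΔN-CTCF. No cell of the line has full-length CTCF, also without treatment, and the line was picked as a clone and kept in N2B27 medium with LIF and inhibitors of MEK and GSK3. The labels give 100 nM for both compounds, whereas the column names of the count table give 200 nM for dTAG13. The tag, the compound, the ligase and the truncation removed all change together between the groups, so their parts cannot be told apart in this comparison, and protein levels were not measured by these files.

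CTCF binds DNA through its zinc fingers. Its N-terminal region contacts cohesin and holds cohesin at chromatin loop anchors, while a site close to a promoter can also act on the gene next to it. EU-seq reads RNA made during a short pulse of 5-ethynyl uridine (0.5 mM for 20 min here), so it reports on recent transcription rather than on accumulated mRNA. The untreated libraries of the line and those given both compounds (2 each) serve below as reference points. Total counts of these 8 libraries were 7733060 to 11633383, and correlations of log2 CPM (counts scaled to library size) between replicates were 0.9947 to 0.9953. The study calls its EU-seq replicates after CTCF depletion biological, but the labels do not tie those of this line to separate cultures, and p values measure the spread between these libraries.

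Transcription of a small group of genes was much lower in AGB1 cells than in dTAG13 cells. Of 13678 genes with a mean count above 20 in either group, 188 were lower and 74 were higher at an adjusted p under 0.05, which is 1.37% and 0.541% of the genes tested. With a limit of 2-fold as well, 40 genes were called lower (0.292%) and 7 were called higher (0.0512%). Among the called decreases, AGB1 cells held 17.0 to 49.9% of the dTAG13 level (median 39.0%). Groups of 2 libraries fall apart often by themselves: AGB1 libraries both lay below both dTAG13 libraries for 20.8% of all genes tested, and above them for 20.4%. All the called genes had groups that did not overlap. Most genes barely moved. Among 8588 expressed genes (mean above 15 TPM, counts scaled to counted gene length and library size), 8027 differed by under 1.2-fold, 26, 65 and 110 were lower by over 2-fold, 1.5- to 2-fold and 1.3- to 1.5-fold, and 51, 23 and 3 were higher by 1.3- to 1.5-fold, 1.5- to 2-fold and over 2-fold. With each library left out in turn, the called decreases kept a similar count but not all the same genes. DESeq2 called 34 of the 40 decreases and 5 of the 7 increases. The count of called increases was less steady, with 11 genes without AGB1 replicate 1 and 14 without dTAG13 replicate 2, and so was that of all increases, with 44 genes without AGB1 replicate 2 and 130 without dTAG13 replicate 2.

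**Figure D1:**
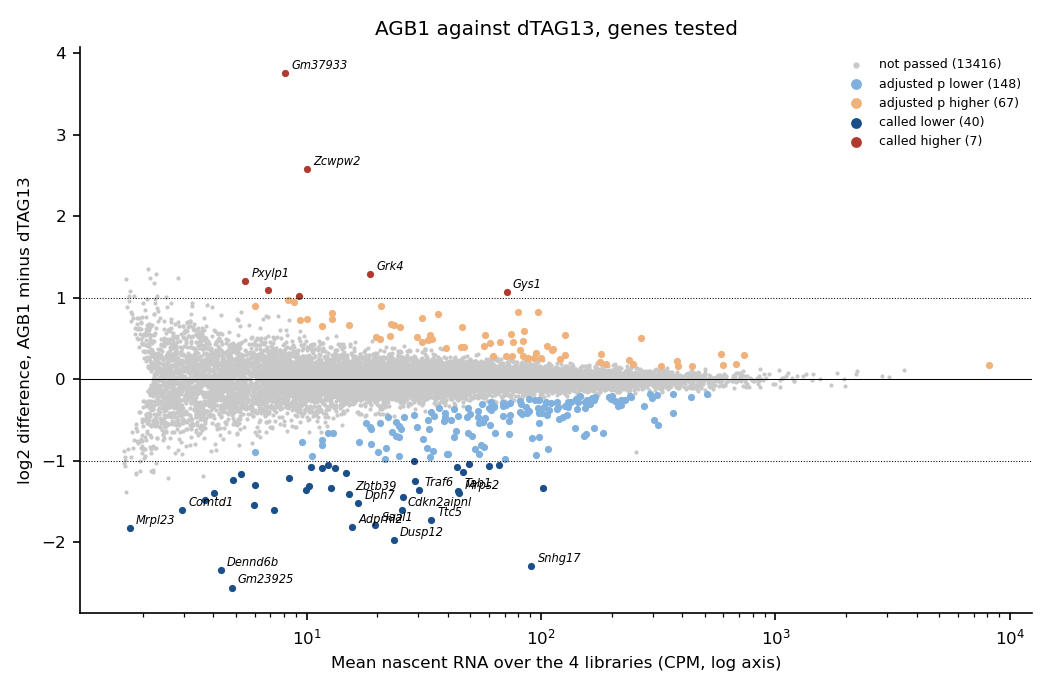
Mean nascent RNA over the 4 libraries (horizontal, CPM on a log axis) against the log2 difference of AGB1 minus dTAG13 (vertical) for 13678 genes. Dark points passed an adjusted p under 0.05 with at least 2-fold (40 lower, 7 higher), light points passed the adjusted p only, and dotted lines mark 2-fold.

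The decrease with the smallest adjusted p was that of *Snhg17*, a noncoding host gene of small nucleolar RNAs on chromosome 2 (158355307-158361510 in mm10). Its level was 154 and 147 CPM in dTAG13 cells and 31.2 and 30.3 CPM in AGB1 cells, a log2 difference of -2.29 ± 0.07 (SE, n = 2 a group, edgeR adjusted p = 2.83e-12). Both AGB1 libraries lay far below both dTAG13 libraries. *Gm23925*, a transcript of 132 bases that lies wholly within *Snhg17* on the same strand, had 9.13 and 7.36 CPM against 0.830 and 1.84 CPM (log2 difference -2.56), and its reads cannot be told from those of its host. *Dusp12*, which encodes a dual-specificity phosphatase, stood at 36.5 and 38.4 CPM in dTAG13 cells and at 9.96 and 9.12 CPM in AGB1 cells (log2 difference -1.98 ± 0.12, adjusted p = 8.07e-08). *Adprhl2*, whose product removes ADP-ribose from serines, stood at 23.9 and 24.9 CPM against 6.40 and 7.38 CPM (log2 difference -1.82 ± 0.14). *Ttc5*, a cofactor of p53 that also takes part in tubulin autoregulation, stood at 56.7 and 48.2 CPM against 17.1 and 14.4 CPM (log2 difference -1.73 ± 0.11). In each of these genes the AGB1 libraries held less than the lower dTAG13 library by a wide margin.

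The other large decreases among expressed genes covered varied roles. *Cdkn2aipnl* fell from 36.8 and 39.7 CPM in dTAG13 cells to 13.9 and 11.5 CPM in AGB1 cells. *Dph7*, which acts in diphthamide synthesis on elongation factor 2, fell from 23.1 and 26.1 CPM to 7.47 and 9.63 CPM. *Zbtb39*, a zinc finger gene, fell from 23.9 and 20.3 CPM to 8.30 and 8.20 CPM. *Tab1*, an activating partner of the kinase TAK1, stood at 60.2 and 67.5 CPM against 24.7 and 24.7 CPM, and *Traf6*, a ubiquitin ligase, at 38.9 and 47.4 CPM against 18.3 and 15.7 CPM. *Mrps2*, a protein of the small mitochondrial ribosomal subunit, stood at 69.2 and 60.2 CPM against 27.9 and 21.4 CPM. *Comtd1* had 40 and 39 counts in dTAG13 libraries and 10 and 16 in AGB1 libraries (log2 difference -1.61, adjusted p = 0.0138), and it lost the call without AGB1 replicate 1 (adjusted p = 0.0709). *Csnk2a2*, a catalytic subunit of casein kinase 2, was among the more abundant genes called, with 145 and 147 CPM against 54.4 and 60.5 CPM (log2 difference -1.34 ± 0.06, adjusted p = 1.68e-09). This gene, *Gfm1* and *Nomo1* were chosen after their values were seen. *Gfm1*, the mitochondrial elongation factor G1, stood at 85.5 and 92.8 CPM in dTAG13 cells and at 42.7 and 43.7 CPM in AGB1 cells, and *Nomo1*, a protein of the endoplasmic reticulum, stood at 78.2 and 84.5 CPM against 38.9 and 39.2 CPM.

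Among called genes below 15 TPM, *Dennd6b* had the largest decrease, from 48 and 85 counts in dTAG13 libraries to 10 and 16 in AGB1 libraries (log2 difference -2.34 ± 0.29, adjusted p = 0.000120). *Mrpl23*, a protein of the large mitochondrial ribosomal subunit, rested on 22 and 28 counts against 5 and 9 (log2 difference -1.82 ± 0.41, adjusted p = 0.0239). Its call was lost without either AGB1 library (adjusted p = 0.161 without replicate 1 and 0.0547 without replicate 2). *Saal1* stood at 31.3 and 29.9 CPM against 7.83 and 9.63 CPM (log2 difference -1.79 ± 0.13). *Det1*, a ubiquitin ligase component, was called through 2 overlapping transcripts that share reads, so the 40 called decreases are those of 39 gene names. The call of its shorter one was lost without AGB1 replicate 2 (adjusted p = 0.120).

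**Figure D2:**
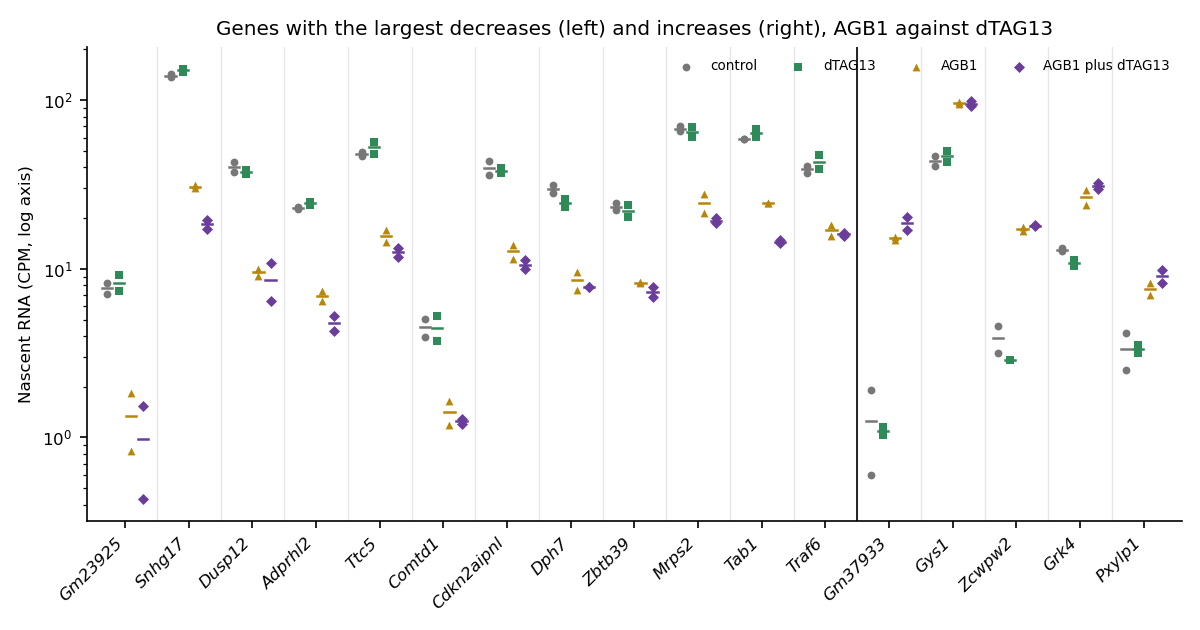
Nascent RNA of each library (CPM, log axis) for the 12 expressed genes with the largest decreases and for 5 called increases, with points for the 2 libraries of a condition and a bar for their mean. In the 12 genes on the left both AGB1 libraries lie below both dTAG13 libraries, which their choice required, and in the 5 on the right both lie above.

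Genes that the study put forward as activated by CTCF, several of them essential, were lower as a group. All 18 of these genes passed the edgeR test in the direction of AGB1 below dTAG13, 7 of them with 2-fold. Their median log2 difference was -0.91 against 0.00 over all genes tested. With DESeq2, *Rabggta*, *Vps36* and *App* did not pass and *Mrpl23* had no adjusted p. The study picked these 18 genes on samples of this series, so their common direction is not independent evidence. Beside *Ttc5*, *Tab1*, *Mrps2*, *Dusp12*, *Zbtb39* and *Mrpl23*, the strongest member was *Nle1*, a ribosome biogenesis factor, at 17.2 and 23.1 CPM in dTAG13 cells and 9.25 and 9.22 CPM in AGB1 cells (log2 difference -1.14 ± 0.16, adjusted p = 0.000412). Subunits of RNA polymerases were among them. *Polr2c*, of RNA polymerase II, stood at 53.1 and 51.9 CPM against 29.2 and 26.6 CPM (log2 difference -0.91), with 60.4% of its length overlapped by *Dok4* on the opposite strand, so that the source of its reads is uncertain. *Polr3a*, the largest subunit of RNA polymerase III, stood at 92.4 and 87.5 CPM against 55.9 and 56.8 CPM (log2 difference -0.67). *Pabpc4*, a poly(A)-binding protein, had 125 and 125 CPM against 66.9 and 64.6 CPM, *Bysl*, a factor of small ribosomal subunit assembly, had 53.9 and 50.2 CPM against 29.8 and 25.4 CPM, and *Wdr70* had 188 and 196 CPM against 116 and 124 CPM. *Rbm17*, *Rbm45*, *Psmd6*, a subunit of the proteasome, and *Rabggta*, a subunit of the enzyme that prenylates Rab proteins, had log2 differences of -0.72, -0.86, -0.70 and -0.77. The smallest differences were those of *Vps36*, of the ESCRT machinery (-0.54, adjusted p = 0.0349), and of *App*, the amyloid precursor gene (-0.46, adjusted p = 0.0377). *Vps36* did not pass without either AGB1 library or without dTAG13 replicate 1 (adjusted p = 0.236, 0.0967 and 0.0892), *App* did not pass without either AGB1 library or without dTAG13 replicate 2 (0.128, 0.289 and 0.0802), and *Rabggta* did not pass without AGB1 replicate 2 or without dTAG13 replicate 2 (0.225 and 0.0883).

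The promoters of genes that were lower held the core of the CTCF site more often than promoters at large, mostly in the orientation of the gene. RefSeq windows of GRCm38.p6, from 250 bases before to 50 after the start, were matched to 9541 of the 13678 genes tested, with a start within 500 bases of the counted one. The looser of 2 motifs, CC, any 3 bases, AG, any 2 bases and GGC, read on the strand of the gene, occurred in 11 of 32 called decreases with a window (34.4%), in 46 of 143 genes lower at an adjusted p under 0.05 (32.2%), in 9 of 49 higher ones (18.4%) and in 754 of all 9541 windows (7.9%). Read on the opposite strand it occurred in 4 of the 32 (12.5%), in 13 of the 143 (9.09%), in 11 of the 49 (22.4%) and in 6.02% of all windows. The stricter motif has A as the base after CC, so that each match of it is also one of the looser motif. It gave 4 of 32, 16 of 143, 3 of 49 and 1.68% of all windows in the gene's orientation. No test was made, both strands were searched with these letters alone, and a match describes the letters and not binding. The windows below show such matches in 6 genes that were lower, chosen after their values were seen and written along the gene with the match in capitals.
Adprhl2: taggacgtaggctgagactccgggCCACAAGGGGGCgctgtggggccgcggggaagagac
Krtcap2: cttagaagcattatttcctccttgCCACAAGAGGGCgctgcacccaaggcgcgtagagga
Gfm1: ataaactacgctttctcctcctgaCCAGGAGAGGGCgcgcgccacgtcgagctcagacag
Zfp398: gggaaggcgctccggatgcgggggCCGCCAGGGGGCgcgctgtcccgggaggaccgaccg
Rab12: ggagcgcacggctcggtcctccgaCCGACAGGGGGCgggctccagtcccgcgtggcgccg
Wdr70: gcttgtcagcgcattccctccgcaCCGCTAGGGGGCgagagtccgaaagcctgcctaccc
The first 3 of these hold the stricter motif. They lie at chr4:126321724-126321783 (minus strand), chr3:89246343-89246402 (plus strand), chr3:67430007-67430066 (plus strand), chr6:47835573-47835632 (plus strand), chr17:66519746-66519805 (minus strand) and chr15:8099252-8099311 (minus strand), and the capitals are centred 50, 65, 78, 58, 105 and 72 bases before the RefSeq start. The RefSeq start of *Krtcap2* lies 472 bases downstream of the start of its counted transcript. Its match therefore lies within the counted gene body and not before it. *Krtcap2*, a subunit of the oligosaccharyltransferase, stood at 15.1 and 13.8 CPM in dTAG13 cells and at 5.10 and 6.04 CPM in AGB1 cells, *Zfp398* at 36.0 and 39.2 CPM against 14.2 and 13.5 CPM, and *Rab12*, a small GTPase, at 60.8 and 71.5 CPM against 33.1 and 31.7 CPM. *Dennd6b* and *Zfp341*, also called lower, held the motif in the opposite orientation, as did *Lsm11* and *Gys1*, which were higher in AGB1 cells. Other genes that were higher, *Pxylp1* and *Kctd6*, held it in the orientation of the gene, and *Pxylp1* held it in the opposite orientation as well.
Dennd6b: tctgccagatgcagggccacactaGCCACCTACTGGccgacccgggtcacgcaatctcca
Zfp341: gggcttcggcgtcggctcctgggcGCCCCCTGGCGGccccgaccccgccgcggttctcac
Lsm11: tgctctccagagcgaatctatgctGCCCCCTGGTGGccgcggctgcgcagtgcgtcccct
Gys1: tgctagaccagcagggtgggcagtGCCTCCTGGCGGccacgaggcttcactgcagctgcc
These lie at chr15:89196619-89196678 (minus strand), chr2:154613263-154613322 (plus strand), chr11:45945003-45945062 (minus strand) and chr7:45434791-45434850 (plus strand). The windows of *Snhg17*, *Dusp12*, *Ttc5* and *Mrps2* held neither motif on either strand, which says only that those letters were absent from these bases. The study assigned CTCF motifs to the reporter promoters of *Ttc5* and *Mrps2*, and found no canonical one for *Dusp12*. The letters searched here therefore miss some sites that the study assigned, which limits every motif share above.

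Fewer genes were higher in AGB1 cells. *Gm37933*, a long noncoding RNA on chromosome 3, was close to silent in dTAG13 cells, with 8 and 12 counts, and had 130 and 145 counts in AGB1 libraries, a 13.6-fold difference (log2 difference 3.76 ± 0.24, adjusted p = 1.27e-07). *Zcwpw2*, annotated as a transcribed pseudogene, rose from 2.87 and 2.87 CPM to 17.7 and 16.8 CPM (5.99-fold), and *Grk4*, a kinase of G protein-coupled receptors, from 11.3 and 10.4 CPM to 29.2 and 23.9 CPM (2.44-fold). *Gys1*, the muscle form of glycogen synthase, stood at 50.1 and 42.7 CPM in dTAG13 cells and at 94.8 and 97.9 CPM in AGB1 cells (log2 difference 1.07 ± 0.08, adjusted p = 2.33e-07). It overlaps *Ruvbl2* on the opposite strand over 14.9% of its length, and the strand setting of the counting is not given in the sources used here. *Pxylp1* stood at 3.52 and 3.15 CPM against 7.00 and 8.20 CPM (adjusted p = 0.00710). Its call was lost with DESeq2 and without AGB1 replicate 2 (log2 difference 1.08 without that library). *Gm28050* and *Tnni1*, the slow skeletal troponin I gene, made up the 7, with log2 differences of 1.09 and 1.02. *Gm28050* did not pass with DESeq2 or without AGB1 replicate 1 (log2 difference 0.97 without that library). Of the 5 genes the study described as held down by CTCF, *Lsm11*, of the histone mRNA processing machinery (43.5 and 49.8 CPM against 67.7 and 69.5 CPM), *Kctd6* (69.0 and 72.0 CPM against 97.3 and 97.3 CPM) and *Mrps16*, of the small mitochondrial ribosomal subunit (21.6 and 17.6 CPM against 32.0 and 28.6 CPM), rose, while *Ocel1* (log2 difference 0.83, 95% interval 0.34 to 1.33, adjusted p = 0.108) and *Mlst8* (0.03, -0.12 to 0.19) did not pass. *Ocel1* and *Mlst8* overlap genes on the opposite strand over 65.3% and 28.7% of their length, so their reads are uncertain as well. The study chose these 5 on samples of the series as well. *Ocel1* passed without dTAG13 replicate 1 (adjusted p = 0.0434). The 4 genes the study named for antisense transcription were *Gins4*, *Rps3a1*, *Timm22* and *Azi2*. Their log2 differences were 0.01, -0.09, -0.02 and 0.28, and none passed. That of *Azi2* was 0.38 without dTAG13 replicate 2. These values count the gene body, whereas the study read antisense RNA upstream of the start, so they do not bear on it. *Gm37933* (86142757-86145545, plus strand) starts just upstream of *Rps3a1* (86137940-86142702, minus strand). *Psmd4* and *Actn4*, the study's reporter controls, had 93.5 and 94.8 against 98.7 and 97.8 CPM and 307 and 311 against 295 and 305 CPM, with intervals of the difference of -0.05 to 0.18 and -0.12 to 0.05.

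Set beside untreated cells of the line, the dTAG13 libraries were the ones close to control. Values are given side by side only, because each of these comparisons shares libraries with the direct one. Over the 40 called decreases the median log2 difference was -1.37 for AGB1 against control and 0.02 for dTAG13 against control, where the genes ranged from -0.45 to 0.67. Over the 7 called increases the medians were 1.18 and, over the 6 tested against control, -0.14. Over all genes tested, AGB1 against control gave 43 called decreases (0.316%) and 12 called increases (0.0881%), and dTAG13 against control gave 0 of either with edgeR, with 1 gene lower and 10 higher at an adjusted p under 0.05 (0.00734% and 0.0734%) and 262 lower and 268 higher at an unadjusted p under 0.05. *Snhg17* had 137 and 143 CPM in control libraries, close to its dTAG13 level, and *Tab1* had 59.0 and 58.5 CPM. *E230034D01Rik* differed from this pattern: its 4.32 and 4.30 CPM in control lay between 6.13 and 7.46 CPM in dTAG13 cells and 2.61 and 3.18 CPM in AGB1 cells, and its call was lost without AGB1 replicate 1 or dTAG13 replicate 2 (adjusted p = 0.0572 and 0.0509).

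The genes called lower were mostly low as well when both truncated forms were removed at once, in a comparison with control that shares no library with the direct one. Of the 40 called decreases, 39 were lower there at an adjusted p under 0.05, against 4.55% of all genes tested in that comparison, with a median log2 difference of -1.77. *E230034D01Rik* was the exception (log2 difference -0.44, adjusted p = 0.425). All 7 called increases were higher, 6 of them at an adjusted p under 0.05, against 2.04% of all genes, and *Gm28050* did not pass. In 35 of the 40 decreases the mean after both compounds was below that after AGB1 alone, as for *Snhg17* (17.3 and 19.6 CPM against 31.2 and 30.3 CPM), *Tab1* (14.8 and 14.2 CPM against 24.7 and 24.7 CPM) and *Nle1* (4.04 and 3.51 CPM against 9.25 and 9.22 CPM). These differences between the combined and the single treatment were not tested. Across 8435 expressed genes, the direct difference and the combined difference had Pearson's r = 0.601 and Spearman's rho = 0.311, a description across genes, which are not independent replicates.

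**Figure D3:**
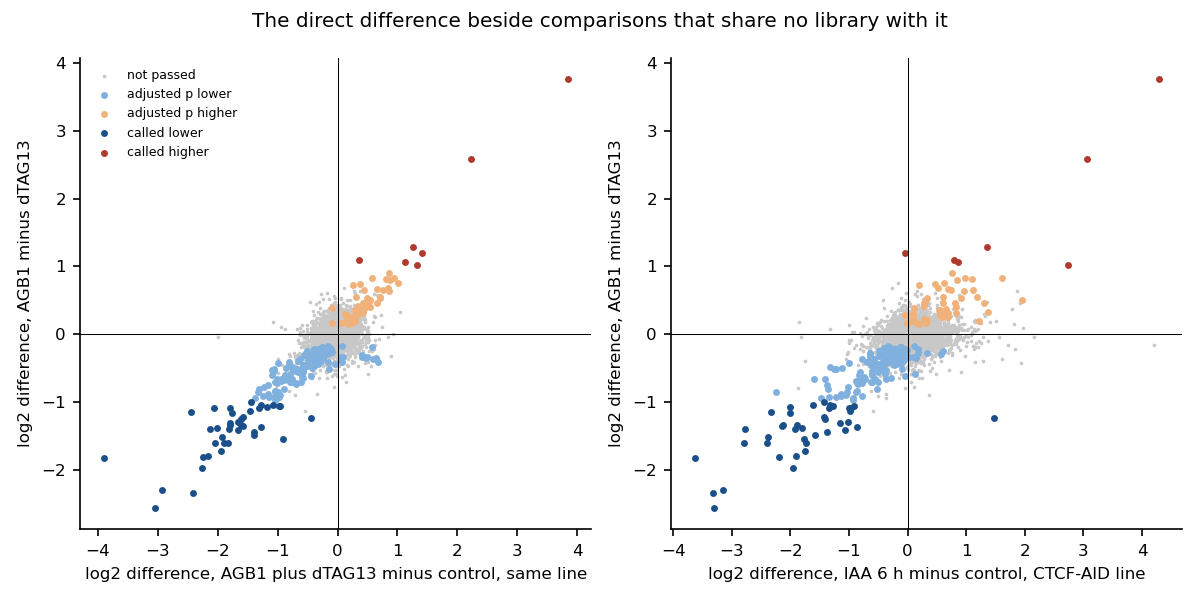
Log2 difference of AGB1 minus dTAG13 (vertical) against that of AGB1 plus dTAG13 minus control in the same line (left) and of IAA minus control in CTCF-AID mESCs (right), for expressed genes and all called genes. The called decreases lie at the lower left of both panels apart from *E230034D01Rik*, at 1.48 on the horizontal axis of the right panel.

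Lines with other forms of CTCF gave gene lists from libraries of the series outside the direct comparison. In CTCF-AID mESCs an auxin-inducible degron removes full-length CTCF within 6 h of IAA, and in CTCF YF-AA mESCs dTAG13 removes, here for 2 h, a CTCF with changed residues in its contact to cohesin. Of the 40 called decreases, 37 were lower in CTCF-AID at an adjusted p under 0.05 (2.01% of all genes tested there) and 37 were lower in CTCF YF-AA (2.70%). *Traf6*, *Inpp5e* and *E230034D01Rik* did not pass in CTCF-AID, and *Zfp786*, *Inpp5e* and *E230034D01Rik* did not pass in CTCF YF-AA. Of the 7 called increases, 5 were higher in CTCF-AID (1.57%) and 4 in CTCF YF-AA (1.24%). Read from the lists, 129 tested genes were lower by at least 1.5-fold in both lines, and 80 of these were lower in AGB1 than in dTAG13 cells (62.0%, against 1.37% of all genes), 36 of them with 2-fold, with a median log2 difference of -0.67. None was higher, and 49 did not pass. Of the 57 tested genes lower in CTCF-AID that were not lower at an adjusted p under 0.05 in CTCF YF-AA, 5 were lower (8.77%), with a median of -0.20. Of 12 tested genes higher in both lines 7 were higher in AGB1 cells (58.3%, against 0.541% of all genes, median 0.63), and of 140 higher in CTCF-AID and not in CTCF YF-AA 10 were higher (7.14%, median 0.08).

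Genes that changed on loss of cohesin passed the test about as rarely as genes at large. RAD21-AID mESCs, in which IAA removes a core subunit of cohesin, gave 245 tested genes lower and 208 tested genes higher by at least 1.5-fold after 4 h. The full lists had no TPM limit and held 329 and 412 genes, and the rest had too few counts to test. Genes with few counts pass less easily, so similar shares do not show a similar response. Of the former, 2 were lower and 2 were higher in AGB1 than in dTAG13 cells (0.816% each, against 1.37% and 0.541% of all genes), with a median log2 difference of -0.04, and of the latter 0 were lower and 2 were higher (0.962%), with a median of -0.03. The first 4 were *Tbx3* (-0.18), *Prr5l* (-0.58), *Smad7* (0.19) and *Nfkbie* (0.81), and the other 2 were *Sfi1* (0.21) and *Gm13832* (0.83). The 40 called decreases had a median of 0.05 in RAD21-AID, with 9 lower and 13 higher at an adjusted p under 0.05, beside 27.4% and 31.0% of all genes in that comparison. Across expressed genes the direct difference had r = 0.462 with CTCF YF-AA, 0.446 with CTCF-AID and 0.024 with RAD21-AID. None of the 245 or the 208 was called at 2-fold in either direction, beside only 0.292% of all genes called lower and 0.0512% called higher.

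**Figure D4:**
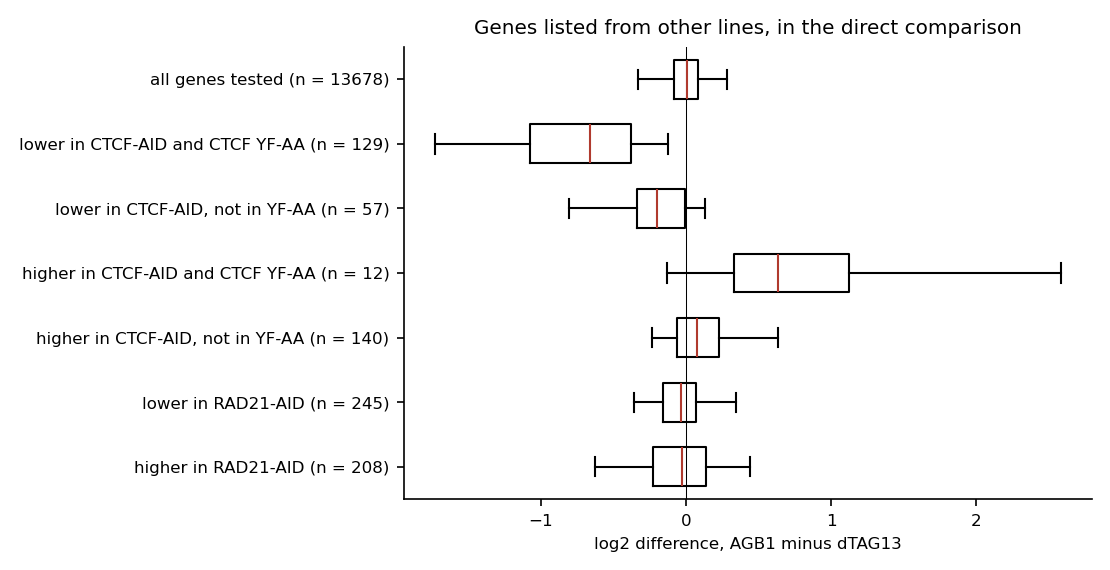
Log2 difference of AGB1 minus dTAG13 for all genes tested and for genes listed from CTCF-AID, CTCF YF-AA and RAD21-AID mESCs. Boxes span the quartiles with the median in red and whiskers reach the 5th and 95th percentiles, and the list lower in both CTCF lines has its median at -0.67 while the RAD21-AID lists lie near that of all genes.

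A second and smaller part of the difference came from the dTAG13 libraries. Several genes of cholesterol synthesis were higher in dTAG13 cells than in AGB1 cells, and higher than in control cells. *Hmgcs1*, a synthase early in the pathway, stood at 135 and 129 CPM in dTAG13 cells, 105 and 103 CPM in AGB1 cells and 99.3 and 98.1 CPM in control (log2 difference of AGB1 minus dTAG13 -0.34 ± 0.05, adjusted p = 0.000697). *Insig1*, a sterol sensor of the endoplasmic reticulum, stood at 108 and 110 CPM, 81.7 and 89.0 CPM, and 74.7 and 72.9 CPM in the same order. *Msmo1*, which oxidises methylsterols, stood at 115 and 115 CPM, 83.1 and 89.5 CPM, and 84.8 and 77.0 CPM. In each gene the dTAG13 libraries lay above all AGB1 and control libraries.

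The list of 24 sterol genes was written after these values were seen, so it is described and not tested. Of the 23 with enough counts, 6 were lower in AGB1 than in dTAG13 cells at an adjusted p under 0.05 (1.37% of all genes), none was higher, and the median log2 difference was -0.19. The others that passed were *Fdft1* (-0.30), *Cyp51* (-0.35) and *Aacs* (-0.36), of which *Cyp51* and *Aacs* did not pass with DESeq2. Against control, 7 were higher after dTAG13 (median 0.29), 0 after AGB1 with edgeR (median 0.10) and 14 after both compounds (median 0.41). These 7 were among the 10 genes higher after dTAG13 against control, as was *Scd2*, a stearoyl-CoA desaturase, which had 437 and 400 CPM against 323 and 306 CPM in AGB1 cells. The single gene lower after dTAG13 against control was *Taco1*, with 7830 and 7460 CPM against 8720 and 9030 CPM. In CTCF YF-AA mESCs, which also received dTAG13, 19 of 24 were higher (median 0.50, against 1.24% of all genes), and in CTCF-AID mESCs, which received IAA, none of 24 passed in either direction with edgeR (median -0.17). In RAD21-AID mESCs, which received IAA too, 3 of 24 were higher and 9 were lower (median 0.03), beside 31.0% and 27.4% of all genes. No member was called at 2-fold in any of these comparisons. *Insig1*, *Msmo1*, *Hmgcs1* and *Cyp51* were also among the 5 genes that were lower in AGB1 cells among the 46 tested genes of the list higher in CTCF YF-AA (10.9%, against 1.37% of all genes). Of the same 46, 12 were higher in AGB1 cells (26.1%, against 0.541%), and the median log2 difference was 0.27. Cells without a dTAG allele given dTAG13 were not among the libraries, and the part of the compound itself was not tested. *Aacs* did not pass in the direct comparison without AGB1 replicate 1 (adjusted p = 0.278) or replicate 2 (0.0625), and *Cyp51* did not pass without AGB1 replicate 2 (0.175).

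**Figure D5:**
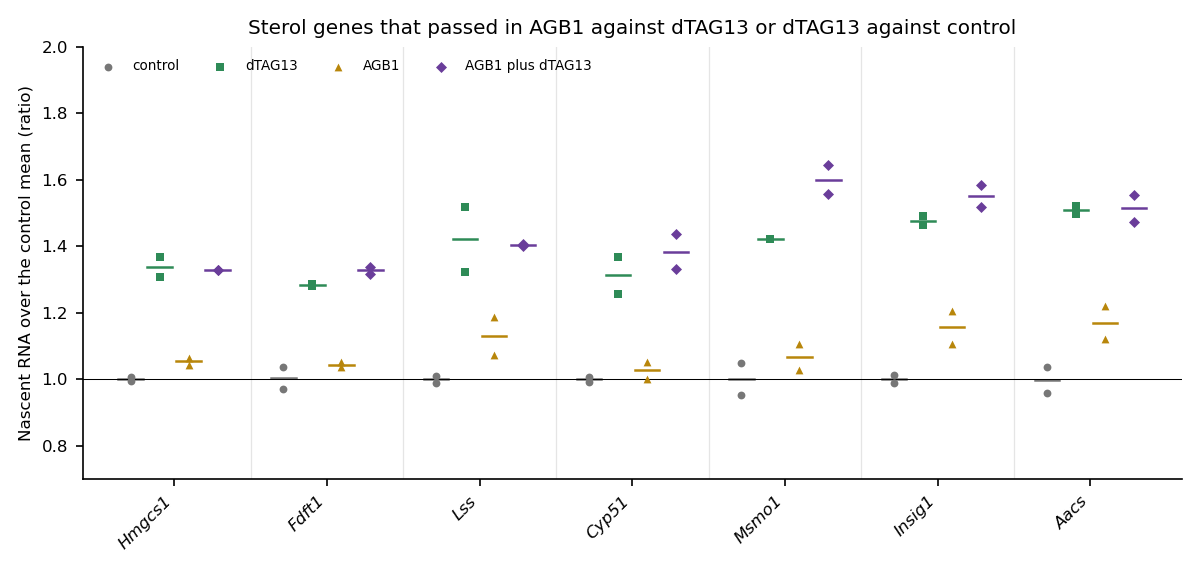
Nascent RNA of each library divided by the mean of the 2 control libraries for 7 sterol genes that passed in AGB1 against dTAG13 or in dTAG13 against control. Points are libraries and bars are means of 2, and in all 7 genes the libraries with dTAG13, alone or with AGB1, lie above those with AGB1 alone. For dTAG13 alone this order follows largely from the choice of genes.

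Gene groups of general transcription and translation moved in few members. *Polr2c*, *Polr3a*, *Mrps2*, *Mrpl23*, *Psmd6* and *Zbtb39* below were among the 18 genes that the study picked on samples of this series. Shares that rest on them are not independent evidence. Of 82 tested genes of the cytosolic ribosome 5 were lower (6.10%, against 1.37% of all genes) and none was higher (against 0.541%), with a median log2 difference of -0.02. They were *Rpl5* (354 and 355 CPM against 252 and 247 CPM, log2 difference -0.50 ± 0.04, adjusted p = 5.99e-07), *Rplp0* (-0.47), *Rpl36a* (-0.54), *Rps4x* (-0.36) and *Rpl11* (-0.34), of which *Rpl5* overlaps *Fam69a* on the opposite strand over 11.2% of its length and *Rpl11* did not pass without AGB1 replicate 2 (adjusted p = 0.0763). Of 28 subunits of RNA polymerases 3 were lower (10.7%), *Polr2c*, *Polr3a* and *Polr2j*. *Polr2j* had 30.5 and 30.1 CPM against 21.2 and 22.7 CPM. It did not pass with DESeq2 or without either AGB1 library (log2 differences -0.41 without replicate 1 and -0.51 without replicate 2). Of 78 genes of the mitochondrial ribosome, *Mrps2* and *Mrpl23* were lower (2.56%) and *Mrps16* was higher (1.28%). *Psmd6* was the only one of 45 proteasome genes that passed (2.22%), *Snhg17* the only one of 9 snoRNA hosts, and none of 30 Mediator genes passed. Of 39 *Zbtb* genes *Zbtb39* was lower and *Zbtb2* was higher (2.56% each; log2 difference of the latter 0.38, adjusted p = 0.0352, not past the test when any 1 library but dTAG13 replicate 2 was left out, adjusted p 0.106 to 0.188).

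Few genes of the machinery of the experiment itself passed, beside 1.37% lower and 0.541% higher of all genes. These lists are short, so few or no passing genes says little beside those shares. *Ctcf* RNA, which the degrons do not act on and which therefore does not check the labels, stood at 282 and 282 CPM in dTAG13 cells and 289 and 287 CPM in AGB1 cells (interval of the log2 difference -0.06 to 0.12), and its paralog *Ctcfl* had too few counts to test. Among 18 tested genes of CTCF and cohesin, only *Stag1*, a cohesin subunit, passed (5.56%). It had 662 and 652 CPM in dTAG13 cells against 828 and 782 CPM in AGB1 cells (log2 difference 0.29 ± 0.03, edgeR adjusted p = 3.99e-05). None of 15 genes of the ubiquitin ligases and proteins the degraders use passed, with *Ube2d3* at -0.01 and *Ddb1* at -0.05, although *Ddb1* passed without dTAG13 replicate 2 (-0.15, adjusted p = 0.0387). Of 18 genes of BET proteins and pause release *Aff1* alone was lower (-0.19, adjusted p = 0.00431), and it did not pass without AGB1 replicate 2 (adjusted p = 0.0957).

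Markers showed mESCs in both groups. Of 20 naive pluripotency genes all were tested, and only *Tbx3* passed (390 and 383 CPM against 333 and 348 CPM, log2 difference -0.18, adjusted p = 0.0180, and 0.253 without AGB1 replicate 1). *Tbx3* is 5.00% of the 20, against 1.37% of all genes lower. Groups did not overlap in 10 lower and 3 higher naive genes, beside 20.8% and 20.4% of all genes. The summed level of the 20 was 7170 and 6950 CPM in dTAG13 cells and 6950 and 6900 CPM in AGB1 cells. Summed levels in dTAG13 and in AGB1 cells were 237 to 249 CPM and at least 225 CPM for 11 primitive endoderm genes, 96.7 to 97.6 and 105 to 112 CPM for 10 trophectoderm genes, 43.8 to 46.9 and 44.7 to 46.1 CPM for 10 genes of the 2-cell-like state, at most 27.9 and 29.8 to 30.1 CPM for 10 neural genes and 676 to 695 and 681 to 685 CPM for 10 fibroblast genes, most of it *Fn1* in the last. For 14 primed or formative genes the summed level was 861 and 858 CPM in dTAG13 cells and 847 and 858 CPM in AGB1 cells. It was the largest of these lists after the naive one. *Elf5*, *Tcstv1*, *Olig2* and *Postn* had no count in the 4 libraries, and no gene of the lists other than the naive one passed, with 9 primed or formative genes tested. In other lists no member passed among 13 tested immediate early genes, 12 of ERK feedback, 3 of the aryl hydrocarbon receptor, 10 studied for enhancers and cohesin and 10 imprinted genes. With 1.37% of all genes lower and 0.541% higher, no passing gene in lists this short is near the rate of genes at large. None of 11 protocadherins passed either, but 10 of them had lower values in AGB1 cells, 8 with groups that did not overlap (20.8% of all genes), and their median log2 difference was -0.22. Their transcripts overlap and share reads. The median against control, in comparisons that share libraries, was -0.32 for AGB1 and -0.10 for dTAG13, and *Pcdhga1* passed for AGB1 against control (adjusted p = 0.0128). Of 20 p53 targets *Cdkn1a*, a cell cycle inhibitor, was lower (342 and 304 CPM against 281 and 266 CPM, log2 difference -0.24) and *Mdm2*, which degrades p53, was higher (0.16, adjusted p = 0.0492). Both calls were lost without single libraries, *Cdkn1a* without AGB1 replicate 2 or dTAG13 replicate 1 (adjusted p = 0.184 and 0.0709) and *Mdm2* without AGB1 replicate 1 or dTAG13 replicate 2 (0.487 and 0.0600). *Cdkn1a* and *Mdm2* are each 5.00% of the 20 targets, against 1.37% of all genes lower and 0.541% higher. Of the 20, 16 had lower values in AGB1 cells, with a median log2 difference of -0.10. Groups did not overlap in 9 lower and 3 higher targets, beside 20.8% and 20.4% of all genes. Of 16 stress genes *Gclm*, a subunit of the enzyme that starts glutathione synthesis, was higher (6.25%). It had 73.7 and 69.6 CPM in dTAG13 cells against 93.0 and 89.5 CPM in AGB1 cells (edgeR adjusted p = 0.00371).

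The median gene that was lower was shorter than the median gene tested. Median lengths of the counted body were 13.6 kb for the 40 called decreases, 22.2 kb for the 188 lower genes and 25.3 kb for all genes tested, while the 74 higher genes had a median of 40.2 kb. Single genes that were lower were long, such as *Wdr70* (226130 bases) and *App* (224082 bases). Median differences by length among expressed genes were -0.01 (log2) in 1294 genes of up to 5 kb and 0.02 in 85 genes above 200 kb. Of the 40 decreases 37 and of the 7 increases 4 were protein-coding. Beside *Snhg17* and *Gm23925*, overlap bears on *Polr2c*, as given above, on *1700021F05Rik*, which lies wholly within *Gm47889* on the opposite strand, and on *Gfm1* and *Inpp5e*, which overlap genes on the opposite strand over 12.8% and 6.7% of their length.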

How the data were processed

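EU-seq libraries of mESCs were read from the count table deposited by the authors. Per the methods and the labels, the authors trimmed adapters with cutadapt, aligned to mm10 with BWA, used SAMtools 1.4 to drop poorly mapped reads and bedtools to drop those in rRNA and tRNA regions, and obtained raw counts with HTSeq over the gene bodies of representative GENCODE transcripts, of which some genes have more than 1. Whether strand was used in counting is not given in the sources used here. Columns counted over a limited part of each gene were not used here. Names were matched for 27455 of 27665 transcripts, and the remaining 210 kept their identifiers.

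The 4 libraries were compared with edgeR 4.0.16 (R 4.3.3), using TMM factors and the quasi-likelihood test, two-sided, on genes with a mean count above 20 in either group. Benjamini-Hochberg adjustment ran over all genes tested, and all adjusted p values are from this tool. The log2 difference is AGB1 minus dTAG13 after subtraction of the median over expressed genes (-0.0020). Called genes passed an adjusted p under 0.05 and 2-fold. CPM values are on 1 TMM scale for the 8 libraries of the line, errors are SE and intervals are 95%. Every other comparison was fitted on its own libraries, with library type as a covariate in CTCF-AID. For genes with several transcripts, lists take the one with the highest mean count. On simulated counts with 200 changed genes among 13678, 172 were recovered and 12 unchanged genes passed. Replicates differed by more than sampling noise, so none was counted as a duplicate.

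Named genes were the 12 expressed genes with the largest called decrease and increase among those whose groups did not overlap. Added to them were the 3 largest of each below 15 TPM and the genes that the study put forward. Each other list gave up to 6 that passed or the 2 most abundant. The members and lists were chosen with earlier results of these data known, and the sterol list after its values were seen. Some genes of that pathway are not reported here. Alternatives were DESeq2 1.42.0, RLE size factors, other count filters, no centring, all 8 libraries in a fit, the replicate number as a block, no genes above 200 kb and each library left out.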

Additional observations from a re-analysis of the deposited data

How the results depend on the processing

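Called decreases numbered 34 to 43 over all alternatives, against 40, and the 34 with DESeq2 were all among the 40. With a library left out the count was similar, but some of the genes called differed. Called increases, 7 in all, numbered 16 with every gene that had any count and 6 to 14 with a library left out. Genes lower at an adjusted p under 0.05, 188 in all, numbered 125 with DESeq2 and 137 to 265 with a library left out. Genes higher, 74 in all, numbered 36 with DESeq2, 133 with every gene that had any count and 44 to 130 with a library left out. Expressed genes higher by at least 1.3-fold, 77 in all, numbered 124 to 146 with a library left out, and without the TPM threshold 536 were lower and 396 higher. Promoters with the looser motif in place of the stricter numbered 11 against 4 for called decreases, 1 against 0 for called increases, 46 against 16 for lower genes, 9 against 3 for higher genes and 754 against 160 in all, which follows from the looser letters. The cause of the other changes was not tested.

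The replicate numbers are shared by the groups, but with a pair of numbers nothing in the labels shows that they pair the samples, and deviations from the group means correlated at 0.116 across 8588 genes. With the number as a replicate block in the 4 libraries, 12 genes were called higher, 321 were lower and 197 were higher at an adjusted p under 0.05, and with all 8 libraries 112 were higher.

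Of 133 genes followed one by one, 80 passed, and 60 of these kept direction and call under every alternative. None that passed turned direction. DESeq2 ended 17 calls, and it gave no adjusted p for 531 genes. Among genes called at 2-fold these were *Comtd1*, *Mrpl23*, *Zfp786*, the shorter *Det1* transcript, *Snx19*, *E230034D01Rik*, *Pxylp1* and *Gm28050*. The others were *Rabggta*, *Vps36*, *App*, *Polr2j*, *Zbtb2*, *Tbx3*, *Mdm2*, *Cyp51* and *Aacs*. Counts under 100 a library in several called genes limit their precision.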
